A study of Mus musculus with 4 samples.

Results

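The genes described here make and recycle glutathione, use it against peroxides and reactive molecules, or carry the peroxiredoxin and thioredoxin systems that run beside it. They were taken by name from the array's annotation, as every probe set with a single gene symbol that begins with Gsta, Gstk, Gstm, Gsto, Gstp, Gstt, Mgst, Gpx, Prdx, Txn, Gclc or Gclm, or that is Gsr or Gss. This gave 61 probe sets for 56 genes, among 28853 probe sets counted on the array. The set of families was chosen on the log2 values of these same arrays, with the differences between Bcl11a-/- and WT cells already known, so all counts below describe the members and carry no test.

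The arrays measured donor-derived cells from the bone marrow (BM) of fetal liver chimeras, which are B6.SJL mice lethally irradiated with 1200 rad and given liver cells of WT or Bcl11a-/- fetuses. Bcl11a encodes a zinc finger transcription factor, and the mutant allele lacks its first exon. There were 4 arrays, 1 each for Bcl11a-/- multipotent progenitors (MPPs), WT MPPs, Bcl11a-/- granulocyte-macrophage progenitors (GMPs) and WT GMPs, all taken 4 weeks after transfer according to the labels. MPPs were LSK cells (Lin-, Sca-1+, Kit+) without surface CD150. Cells were pooled by donor genotype, and the number of chimeras behind a pool was not found in the text. Since a condition has a single array, the differences could not be set against replicate spread and are given without p-value or error. All values are log2 signals as the authors deposited them. A difference is Bcl11a-/- minus WT unless said otherwise, and a change of more than 2-fold, the study's own threshold, lies beyond 1 log2 unit. Signals of different probe sets cannot be ranked against each other, because each has its own probes.

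Glutathione is a small thiol that glutamate-cysteine ligase and glutathione synthetase build from amino acids. Glutathione peroxidases spend it to reduce peroxides, glutathione reductase restores it with NADPH, and glutathione transferases attach it to reactive compounds. Peroxiredoxins also reduce peroxides, and most of them are reset by thioredoxin, which thioredoxin reductase recharges with NADPH. The level of oxidants in blood stem and progenitor cells is known to affect whether they stay quiescent or differentiate. The transcription factor Nrf2 drives many of these genes through antioxidant response elements.

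Median signal over the probe sets counted lay between 5.50 and 5.70 on the 4 arrays. The SD over probe sets was 2.10 in Bcl11a-/- MPPs and 2.21 in WT MPPs, and 2.28 in Bcl11a-/- GMPs and 2.30 in WT GMPs, so the Bcl11a-/- MPP array had the narrowest spread, and its part in the lower bright members was not tested. Bcl11a itself was at 8.64 in Bcl11a-/- MPPs and 9.89 in WT MPPs, and at 7.77 in Bcl11a-/- GMPs and 8.60 in WT GMPs. Of 12 GMP marker genes, granule protein genes among them, 8 were lower by more than 2-fold in WT MPPs than in WT GMPs and none was higher. Flt3, which marks lymphoid-primed MPPs, read 7.71 in Bcl11a-/- MPPs and 9.31 in WT MPPs, and 6.46 in Bcl11a-/- GMPs and 6.75 in WT GMPs. Of 10 stem and multipotent progenitor genes, Kit, Cd34, Hlf, Meis1, Flt3 and Gata2 had signals above 6 on every array, and the stem cell genes Mecom, Procr and Slamf1 had signals under 6 on every array. In Bcl11a-/- MPPs 9 of the 10 had values above WT, with a median difference of 0.34, and Mycn was at 1.78. Late neutrophil genes had a median of 11.47 in Bcl11a-/- MPPs and 11.27 in WT MPPs, and of 11.24 in Bcl11a-/- GMPs and 11.41 in WT GMPs. In Bcl11a-/- MPPs 8 of these 10 genes had values above WT, and Mmp8 at 1.54 and Chil3 at 1.53 were over 2-fold higher. The part of these lists in the member differences was not tested.

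The Gstp cluster is shown as sequence because it held the largest difference of the group. The windows lie upstream of the RefSeq gene starts (GRCm38.p6), run 5′ to 3′ along the gene strand, and carry in capitals the heptamer TGAGTCA, the classical AP-1 site that also sits inside many antioxidant response elements.
Gstp1, chr19:4037952-4038011, minus strand: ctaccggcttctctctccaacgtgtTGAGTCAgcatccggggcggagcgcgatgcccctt
Gstp2, chr19:4042276-4042335, minus strand: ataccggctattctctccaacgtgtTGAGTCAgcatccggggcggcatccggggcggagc
Counted from the gene start, the heptamer begins at −74 in Gstp1 and at −89 in Gstp2. The longest run shared by the 250 bases upstream of both genes is 43 bases. In the windows shown, the run shared around the heptamer is shorter than that. Gstp3 shared no run longer than 8 bases with Gstp1 in those 250 bases, and its window does not hold the heptamer in either orientation. Either orientation of the heptamer was found in 4 of the 49 member genes with an entry in the promoter table (8.16%), namely Gstm5, Gstp1, Mgst2 and Prdx1, and in 5.95% of all 27025 genes with one. This heptamer was chosen after the sequences were seen.

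The longer core TGACNNNGC, searched on both strands from 250 bases before to 50 bases after each start, was found in 10 of those 49 member genes (20.4%) and in 13.99% of all genes with a promoter entry. The 10 are Gclm, Gsta3, Gstm5, Gstm7, Mgst1, Prdx1, Txnrd1, Txndc11, Txndc2 and Txndc5. Windows of 5 of them, each from a different family, show it in capitals. A capital run that begins with GC is the core read on the opposite strand.
Mgst1, chr6:138140461-138140490, plus strand: gcggggcttgGCACGGTCAggaggcggggt
Prdx1, chr4:116685456-116685485, plus strand: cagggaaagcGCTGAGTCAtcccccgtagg
Gclm, chr3:122245413-122245442, plus strand: gctcccgggcGCACCGTCAactctcacgag
Gstm5, chr3:107895802-107895831, plus strand: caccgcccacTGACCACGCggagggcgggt
Txnrd1, chr10:82859104-82859133, plus strand: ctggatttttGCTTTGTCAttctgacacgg
In Prdx1 the core overlaps the heptamer TGAGTCA. Of the 10 genes, Mgst1 and 1 of 2 Prdx1 probe sets were over 2-fold lower in Bcl11a-/- MPPs, and the other 8 genes lay between −0.08 for Txnrd1 and 0.66 for Gstm7. The letters are matches in a window and nothing was measured at them.

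Bcl11a-/- MPPs had lower signal than WT MPPs for members of several families, and none was higher by more than 2-fold. Of 61 probe sets, 8 (13.1%) lay beyond 2-fold below WT, where 2.51% of all probe sets counted did, and 1.39% of all lay as far above it. They belonged to Gstp1, Mgst1, Mgst2, Mgst3, Prdx1, Prdx2, Txn2 and Txndc9. In GMPs no member was lower by more than 2-fold, where 0.35% of all probe sets were, and 1 was higher, that of Gstp3, where 0.319% of all were. The median over members was −0.06 in MPPs and 0.02 in GMPs, beside 0.05 and 0.01 over all probe sets.

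The shares differed with signal level. Among probe sets with a mean signal of at least 8 over the 4 arrays, 6 of 22 members (27.3%) were over 2-fold lower in Bcl11a-/- MPPs, where 9.04% of 4713 probe sets were, and 0.721% of those were higher. Their median was −0.47, beside −0.16 for all bright probe sets. In GMPs none of the 22 bright members was over 2-fold in either direction, where 0.191% of bright probe sets were lower and 0.255% higher. Below that level 2 of 39 members (5.13%) were over 2-fold lower, where 1.23% of 24140 probe sets were. The member median there was 0.00 beside 0.08 for all such probe sets. Of the 61 members, 17 had signals under 6 on all 4 arrays, among them the sperm genes Txndc2 and Txndc8 and the epididymal Gpx5.

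**Figure D1:**
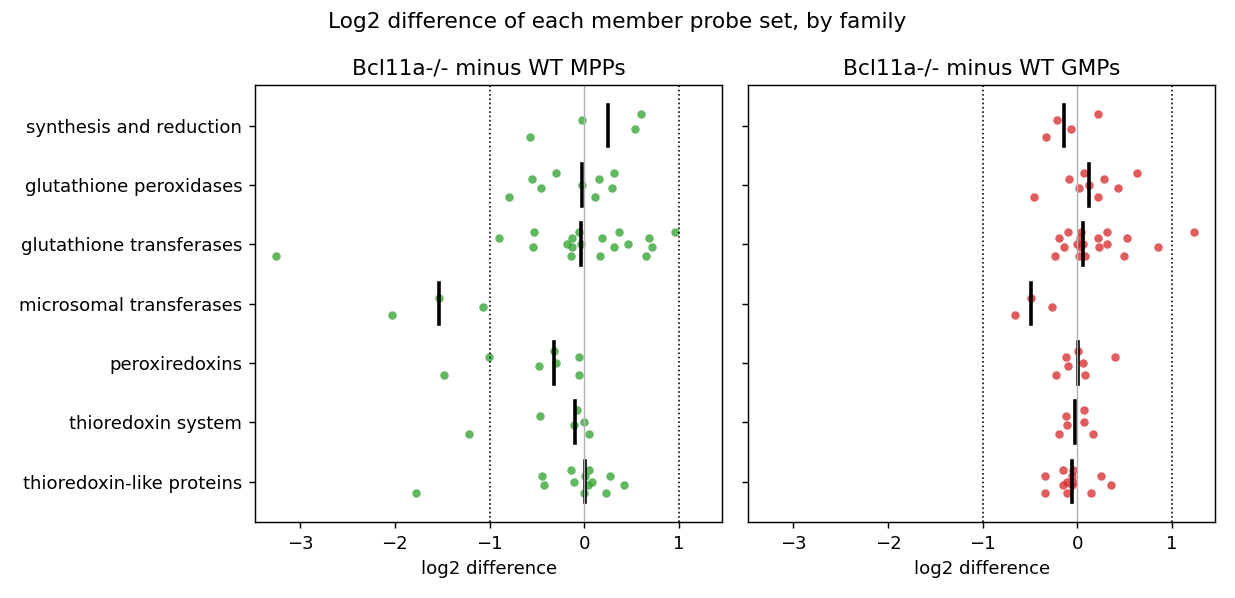
Log2 difference, Bcl11a-/- minus WT, of each of the 61 member probe sets by family, in MPPs (left, green) and GMPs (right, red), from 1 array per condition. Each point is a probe set, black bars are family medians and dotted lines mark 2-fold; the 3 microsomal transferases all lie left of the line in MPPs, with a median of −1.53, and at a median of −0.49 in GMPs.

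Gstp1 encodes the pi-class glutathione transferase, an abundant cytosolic enzyme that also restrains stress kinases. Its signal was 8.13 in Bcl11a-/- MPPs, 11.38 in WT MPPs, 11.96 in Bcl11a-/- GMPs and 11.74 in WT GMPs. The Bcl11a-/- MPP array stood apart from the other 3, all of them between 11.38 and 11.96. The fall in Bcl11a-/- MPPs was 9.54-fold, and only 9 of 28853 probe sets had a lower difference. In GMPs the difference was 0.22.

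Gstp1 and its neighbor Gstp2 are close copies, and 2 further probe sets carry both symbols and so are not members. The first read 8.53 in Bcl11a-/- MPPs and 9.44 in WT MPPs, a difference of −0.91, and 0.29 in GMPs. The second read 8.17 in Bcl11a-/- MPPs and 9.40 in WT MPPs, a difference of −1.22, and 0.40 in GMPs. All 3 probe sets were lower in Bcl11a-/- MPPs and had higher values in Bcl11a-/- GMPs, and the MPP difference was far larger for the probe set named Gstp1 alone. Transcripts of Gstp1 and Gstp2 cannot be told apart by the shared probe sets.

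Gstp3, another pi-class gene, had its larger difference in GMPs. It read 6.17 in Bcl11a-/- MPPs and 6.70 in WT MPPs, and 7.64 in Bcl11a-/- GMPs and 6.41 in WT GMPs. It was 2.35-fold higher in Bcl11a-/- GMPs, where 48 probe sets of the array had a larger positive difference, and its MPP difference was −0.53. It was the only member over 2-fold in GMPs.

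The microsomal transferases were the family whose members all lay over 2-fold below WT in Bcl11a-/- MPPs. All 3 had signals beyond 2-fold there under every centring and normalization tried. These are membrane enzymes, of which Mgst1 clears lipophilic toxins and peroxides and Mgst2 can make leukotriene C4. Mgst3 read 5.09 in Bcl11a-/- MPPs, 7.12 in WT MPPs, 7.48 in Bcl11a-/- GMPs and 7.74 in WT GMPs, 4.07-fold lower in Bcl11a-/- MPPs. Mgst2 read 6.48 in Bcl11a-/- MPPs, 8.01 in WT MPPs, 8.91 in Bcl11a-/- GMPs and 9.57 in WT GMPs, 2.89-fold lower in Bcl11a-/- MPPs. Mgst1 read 6.63 in Bcl11a-/- MPPs, 7.69 in WT MPPs, 9.13 in Bcl11a-/- GMPs and 9.61 in WT GMPs, 2.09-fold lower in Bcl11a-/- MPPs. All 3 genes had the same order of arrays, lowest in Bcl11a-/- MPPs and highest in WT GMPs. In GMPs they also had lower values in Bcl11a-/- cells, with differences of −0.66 for Mgst2, −0.49 for Mgst1 and −0.26 for Mgst3, all within 2-fold.

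**Figure D2:**
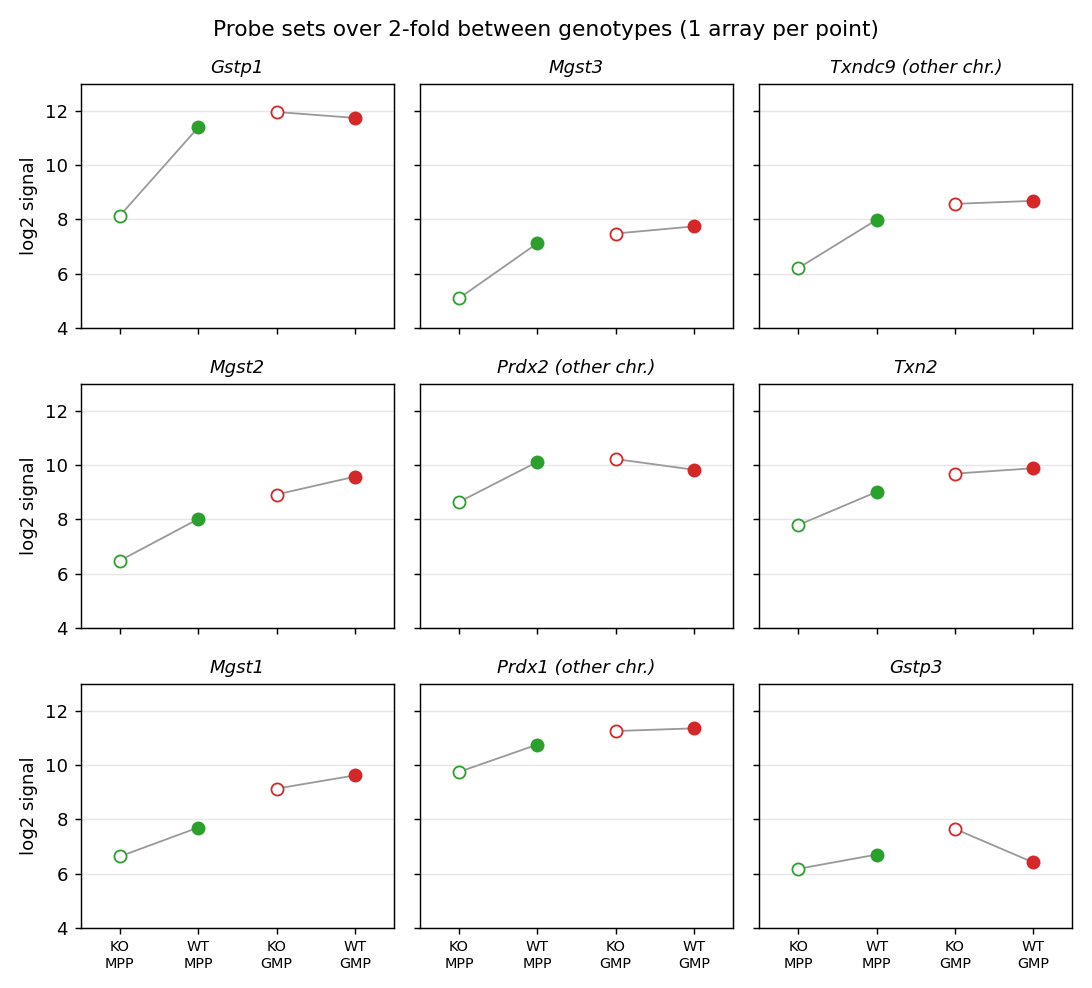
Log2 signal of the 9 member probe sets over 2-fold between genotypes, from lowest to highest MPP difference, with 1 array per point, Bcl11a-/- (KO) as open and WT as filled circles, MPPs in green and GMPs in red. Gray lines join the genotypes, "other chr." marks a probe set numbered among genes of another chromosome than its own, and Gstp1 lies at 8.13 in Bcl11a-/- MPPs against 11.38 in WT MPPs.

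Other cytosolic transferases were mixed, and none besides Gstp1 passed 2-fold in MPPs. The mu-class genes lie side by side in 1 cluster and resemble each other in sequence, so a signal of 1 may hold transcripts of another, and values of single mu-class genes are uncertain. Gstm1 read 8.69 in Bcl11a-/- MPPs, 9.59 in WT MPPs, 12.28 in Bcl11a-/- GMPs and 12.26 in WT GMPs. Its MPP difference of −0.90 and that of Gstm2, 0.96, had opposite signs and lay just within 2-fold. Gstm2 read 5.64 in Bcl11a-/- MPPs, 4.68 in WT MPPs, 5.18 in Bcl11a-/- GMPs and 5.42 in WT GMPs. With signals under 5 set to 5, the Gstm2 difference was 0.64. Gstm7 was at 0.66 in MPPs, Gstm4 at −0.12, and Gstm6 was dim on all arrays.

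Gstm5 had its larger difference in GMPs. It read 8.24 in Bcl11a-/- MPPs, 8.07 in WT MPPs, 9.36 in Bcl11a-/- GMPs and 8.51 in WT GMPs, a GMP difference of 0.86 within 2-fold. Gstt2, of the theta class, was at 0.52 in GMPs and −0.06 in MPPs. Of the 19 cytosolic and mitochondrial transferase probe sets, 14 had higher and 5 lower values in Bcl11a-/- GMPs, at a median of 0.05. Of 14 erythroid marker genes, all had higher values in Bcl11a-/- GMPs, 7 of them by more than 2-fold, and their median difference was 0.99 in GMPs and 0.44 in MPPs. Their signals ran between 5.90 and 12.46 in Bcl11a-/- GMPs and between 5.21 and 10.38 in WT GMPs, and their part in the Gstp3 and Gstm5 differences was not tested.

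Peroxiredoxins had lower values in Bcl11a-/- MPPs for all 7 probe sets, with a median of −0.32, although Prdx4 had a value above 0 after lowess centring (0.05) and with the arrays quantile normalized anew (0.13). Beyond 2-fold were 2 of them. In GMPs the same probe sets had a median of 0.00. The cytosolic enzymes Prdx1 and Prdx2 each had 2 probe sets that gave different sizes. The first of Prdx2 read 8.64 in Bcl11a-/- MPPs, 10.12 in WT MPPs, 10.22 in Bcl11a-/- GMPs and 9.82 in WT GMPs, 2.79-fold lower in Bcl11a-/- MPPs. The other read 7.39 in Bcl11a-/- MPPs, 7.68 in WT MPPs, and 7.08 in both GMP arrays, a difference of −0.29 in MPPs.

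The probe set of Prdx1 that passed 2-fold read 9.74 in Bcl11a-/- MPPs, 10.75 in WT MPPs, 11.25 in Bcl11a-/- GMPs and 11.35 in WT GMPs. Its difference of −1.01 was the smallest of the 8, and it was −0.87 after centring by a lowess curve and −0.69 with the arrays quantile normalized anew. The other Prdx1 probe set read 10.48 in Bcl11a-/- MPPs, 10.96 in WT MPPs, 10.93 in Bcl11a-/- GMPs and 10.87 in WT GMPs. Its MPP difference was −0.48, and −0.05 with the arrays quantile normalized anew. Prdx3, the mitochondrial peroxiredoxin, was at −0.32 in MPPs and 0.08 in GMPs. Prdx4, which works in the endoplasmic reticulum, was at −0.05 in MPPs, and the pseudogene Prdx6-ps2 was also at −0.05.

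In the thioredoxin system only the mitochondrial thioredoxin gene passed 2-fold. Txn2 read 7.79 in Bcl11a-/- MPPs, 9.01 in WT MPPs, 9.68 in Bcl11a-/- GMPs and 9.88 in WT GMPs, 2.33-fold lower in Bcl11a-/- MPPs. Txn1, the cytosolic thioredoxin, read 11.46 in Bcl11a-/- MPPs, 11.93 in WT MPPs, 11.98 in Bcl11a-/- GMPs and 11.92 in WT GMPs. Its difference of −0.47 in MPPs was −0.05 with the arrays quantile normalized anew. The reductases were within 2-fold in MPPs. Txnrd1 (cytosolic) read 7.18 in Bcl11a-/- MPPs, 7.25 in WT MPPs, 7.11 in Bcl11a-/- GMPs and 7.03 in WT GMPs. In MPPs it was at −0.08, Txnrd2 (mitochondrial) at 0.05 and Txnrd3 at −0.11. With the arrays quantile normalized anew, Txnrd1 was at −0.02 in MPPs, beside −0.05 for Txn1. Txnip, which binds and restrains thioredoxin, read 8.91 in both MPP arrays, 8.80 in Bcl11a-/- GMPs and 8.63 in WT GMPs.

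Genes that make and recycle glutathione were within 2-fold in both populations and did not move one way. Gclc, the catalytic subunit of glutamate-cysteine ligase, read 7.36 in Bcl11a-/- MPPs and 7.93 in WT MPPs, a difference of −0.57. Gclm, its modifier subunit, read 8.19 in Bcl11a-/- MPPs and 7.65 in WT MPPs, a difference of 0.54. Gsr, glutathione reductase, read 8.38 in Bcl11a-/- MPPs and 7.78 in WT MPPs, a difference of 0.60. In GMPs it read 9.55 in Bcl11a-/- cells and 9.89 in WT cells. Gss, glutathione synthetase, was at −0.03 in MPPs and −0.07 in GMPs.

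The glutathione peroxidases were within 2-fold too. Gpx1, the main cytosolic enzyme, read 10.92 in Bcl11a-/- MPPs, 11.71 in WT MPPs, 11.74 in Bcl11a-/- GMPs and 11.67 in WT GMPs. Its difference of −0.79 in MPPs was −0.35 with the arrays quantile normalized anew. The members just within 2-fold in MPPs were Gstm2 at 0.96, Gstm1 at −0.90 and Gpx1, and those just beyond it were Prdx1 at −1.01, Mgst1 at −1.06 and Txn2 at −1.22. Gpx4, which reduces lipid peroxides in membranes, had 2 probe sets, at −0.55 and −0.30 in MPPs and at 0.12 and 0.02 in GMPs. Gpx3, the secreted enzyme, read 5.23 in Bcl11a-/- MPPs, 5.07 in WT MPPs, 7.36 in Bcl11a-/- GMPs and 6.93 in WT GMPs. The 9 peroxidase probe sets ran between −0.79 and 0.31 in MPPs and between −0.46 and 0.63 in GMPs. As with Gstp1, the 3 other arrays gave near-equal Gpx1 signal and the Bcl11a-/- MPP array was lowest, and the same was true of Txn1 and of both Gpx4 probe sets. The likeness is in order and not in size. With the arrays quantile normalized anew, the MPP difference was −2.99 for Gstp1, −0.35 for Gpx1 and −0.05 for Txn1.

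Proteins that share the thioredoxin fold but serve other ends are also in the group. Txndc9, a partner of the CCT chaperonin, had 2 probe sets with opposite signs in MPPs. One read 6.20 in Bcl11a-/- MPPs, 7.98 in WT MPPs, 8.57 in Bcl11a-/- GMPs and 8.68 in WT GMPs, 3.43-fold lower in Bcl11a-/- MPPs. The other read 7.43 in Bcl11a-/- MPPs, 7.19 in WT MPPs, 7.17 in Bcl11a-/- GMPs and 7.28 in WT GMPs, a difference of 0.23 in MPPs. The remaining thioredoxin-like genes were within 2-fold in both populations, and the family median was 0.01 in MPPs and −0.06 in GMPs. Txndc17, a cytosolic protein, read 10.40 in Bcl11a-/- MPPs, 10.50 in WT MPPs, 10.42 in Bcl11a-/- GMPs and 10.57 in WT GMPs, and its MPP difference changed sign to 0.28 with the arrays quantile normalized anew. In MPPs, Txndc5 and Txndc12 of the endoplasmic reticulum were at 0.01 and −0.44, and the splicing factors Txnl4a and Txnl4b at 0.05 and 0.42.

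The probe sets that disagreed also differed in their place on the array. Probe set numbers follow the genome for the most part, and a probe set was taken as numbered on a chromosome when at least 9 of its 10 nearest neighbors with 1 symbol lie there in RefSeq. The over 2-fold probe set of Prdx1 was numbered among genes of chromosome 16 although Prdx1 lies on chromosome 4, that of Prdx2 among genes of chromosome 1 although Prdx2 lies on chromosome 8, and that of Txndc9 among genes of chromosome 12 although Txndc9 lies on chromosome 1. The probe sets of these genes on their own chromosomes were at −0.48, −0.29 and 0.23 in MPPs. Gstm3 had such a pair too, with −0.13 for the probe set numbered on chromosome 10 and 0.71 for that on its own chromosome 3. In each of the 4 pairs the probe set numbered elsewhere had the lower MPP difference. The locus on which those probes were designed was not found.

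The same split was visible across the array. Of 528 probe sets with 1 symbol that were numbered on another chromosome than their gene, 17.2% were over 2-fold lower in Bcl11a-/- MPPs, against 2.07% of 19856 numbered on their own. Among those with a mean signal of at least 8 the shares were 22.2% of 374 and 7.09% of 3074. In GMPs 3 of the 528 were over 2-fold lower, against 56 of the 19856. Without the 4 member probe sets of this kind, 5 members were over 2-fold lower in Bcl11a-/- MPPs, namely Gstp1, the 3 Mgst genes and Txn2.

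**Figure D3:**
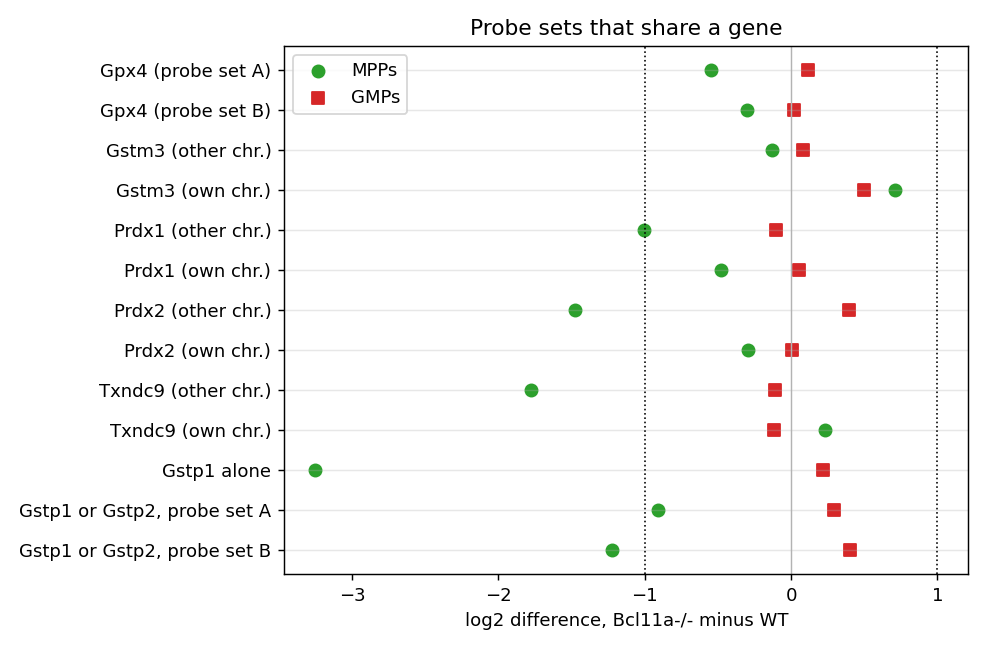
Log2 difference, Bcl11a-/- minus WT, in MPPs (green circles) and GMPs (red squares) for probe sets that share a gene, with dotted lines at 2-fold and 1 array per condition. "Own chr." and "other chr." give where a probe set is numbered; Txndc9 is at −1.78 and 0.23 in MPPs from its 2 probe sets, and Gstp1 alone is at −3.25 where the probe sets of Gstp1 or Gstp2 are at −0.91 and −1.22.

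Among bright protein-coding genes of the array, short gene span went with a lower MPP difference, so spans of the members were set beside their differences. Over 3052 protein-coding genes with a mean signal of at least 8, the Spearman correlation of span with the MPP difference was 0.28, and over the 20 member genes at that level it was 0.18, as a description of genes that share 2 arrays. Over all 55 member genes with a span it was 0.05. With the GMP difference the correlation was −0.57 over the 20 bright member genes and −0.44 over the 55, and −0.0020 over the 3052 genes. Gstp1 spans 2.50 kb and Gpx1 1.26 kb. Mgst1 spans 16.2 kb, Mgst2 45.8 kb and Mgst3 21.9 kb, beside a median of 19.7 kb over those 3052 genes. Of bright genes spanning under 10 kb, 13.5% of 903 were over 2-fold lower in Bcl11a-/- MPPs and 1 of 10 members was. Of those of at least 10 kb, 4.37% of 2149 were and 3 of 10 members were, namely Mgst1, Mgst2 and Txn2. The part of span in any single difference was not tested.

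The difference in MPPs less that in GMPs gave how far the genotypes departed between the populations. It was below −1 for 6 of 61 members (9.84%), where 2.71% of all probe sets were, and above 1 for Gstm2 alone (1.64%), where 2.14% were. The 6 were Gstp1 at −3.47, the first Prdx2 probe set at −1.88, Mgst3 at −1.76, Gstp3 at −1.76, the first Txndc9 probe set at −1.67 and Txn2 at −1.02. Gstm2 was dim, between 4.68 and 5.64. With signals under 5 set to 5, its differences were 0.64 in MPPs and −0.23 in GMPs, so its place above 1 was not kept. Mgst1, at −0.58, and Mgst2, at −0.87, departed by less. The MPP and GMP differences were −1.06 and −0.49 for Mgst1, −1.53 and −0.66 for Mgst2, and −2.03 and −0.26 for Mgst3.

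Between the populations, more members had lower signal in MPPs than in GMPs. The probe set of Gstm3 numbered elsewhere read 5.41 in Bcl11a-/- MPPs, 5.54 in WT MPPs, 7.70 in Bcl11a-/- GMPs and 7.61 in WT GMPs. In WT cells 10 of 61 probe sets (16.4%) lay over 2-fold lower in MPPs, where 2.67% of all probe sets were, and 1 was higher, where 1.55% were. Gstm1 was 6.37-fold lower in WT MPPs than in WT GMPs, Gsr 4.33-fold, Mgst1 3.79-fold, Gpx3 3.62-fold and Mgst2 2.95-fold. That Gstm3 probe set, Gstm4, Gclm, Txndc12 and Txnl4b made up the rest. The Gstm3 probe set on its own chromosome was within 2-fold, at −0.56 for WT MPPs minus WT GMPs. Without probe sets numbered on another chromosome, 9 members were over 2-fold lower in WT MPPs. Prdx4 was the one member higher in MPPs, at 8.98 in Bcl11a-/- MPPs and 7.59 in Bcl11a-/- GMPs, and at 9.03 in WT MPPs and 7.81 in WT GMPs. Among bright probe sets 5 of 22 members were over 2-fold lower in WT MPPs, where 7.41% of 4713 were, and 1 was higher, where 1.19% were.

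In Bcl11a-/- cells 18 members (29.5%) lay over 2-fold lower in MPPs than in GMPs, where 5.91% of all probe sets were. Again Prdx4 alone was higher, where 3.08% were. Without probe sets numbered on another chromosome, 14 members were over 2-fold lower. Across the array 165 of 528 probe sets numbered on another chromosome were, against 1134 of 19856 numbered on their own. Among bright probe sets 11 of 22 members (50%) were lower, where 20.2% were, and 1 was higher, where 3.1% were. The difference between the populations was −3.82 in Bcl11a-/- cells and −0.35 in WT cells for Gstp1, and −3.59 in Bcl11a-/- cells and −2.67 in WT cells for Gstm1. For Gsr it was −1.18 in Bcl11a-/- cells and −2.11 in WT cells, so its gap was narrower in Bcl11a-/- cells. Prdx4 was at 1.39 in Bcl11a-/- cells and 1.21 in WT cells. These population differences use the same 4 arrays as the genotype differences and are no separate evidence.

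**Figure D4:**
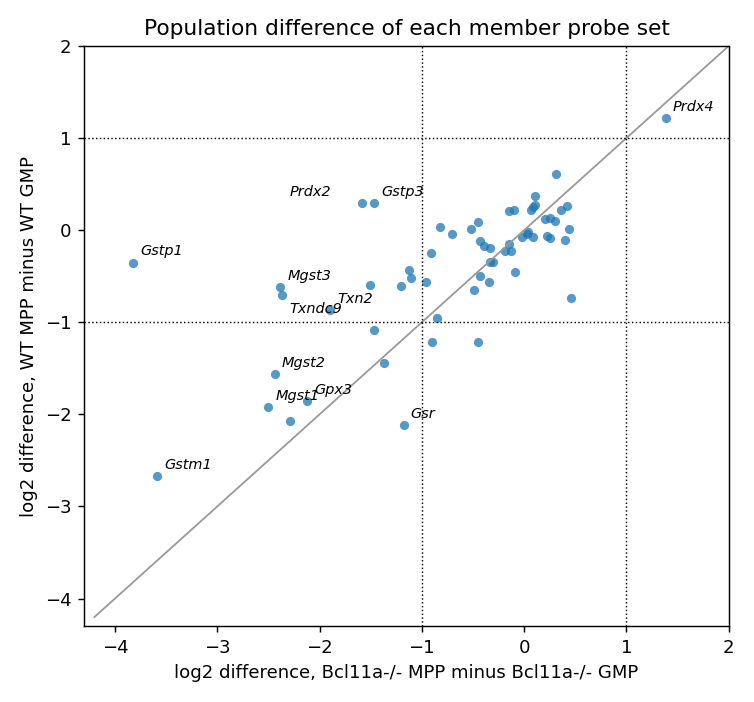
Log2 difference, MPP minus GMP, of each member probe set in Bcl11a-/- cells (horizontal) and in WT cells (vertical), with 1 array per condition, a gray line of equal values and dotted lines at 2-fold. Points left of the gray line have a lower MPP value relative to GMP in Bcl11a-/- than in WT cells, as Gstp1 does at −3.82 and −0.35; Gsr lies right of it at −1.18 and −2.11.

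GMP marker genes, a list of granule protein genes with regulators, receptors and others, were mixed in Bcl11a-/- MPPs. Of 12 measured, 8 had values below WT, 5 of them by over 2-fold, and 4 had values above it. Those 4 were Cebpe at 0.87, Fcgr3 at 0.47, Csf3r at 0.26 and Cebpa at 0.02, none of them a granule protein gene. The granule protein genes were all below WT, with Mpo at −0.50, Elane at −2.44, Prtn3 at −2.65, Ctsg at −2.25 and Nkg7 at −1.22. The list median was −0.44 in MPPs and −0.06 in GMPs, and signals ran between 6.32 and 11.3 in Bcl11a-/- MPPs and between 6.13 and 11.8 in WT MPPs. Of 14 B lineage genes measured, 12 lay over 2-fold below WT in Bcl11a-/- MPPs, with a median of −2.62. In Bcl11a-/- GMPs all 14 had values below WT, 5 of them by over 2-fold, with a median of −0.68. In these pooled sorts a smaller share of such cells and less RNA per cell cannot be told apart, and the part of either list in the member differences was not tested.

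Other antioxidant genes were read through lists of whole genes, of which 2.02% on the array were over 2-fold lower and 0.908% over 2-fold higher in Bcl11a-/- MPPs. In GMPs the shares of all genes were 0.281% lower and 0.361% higher. Of 18 other antioxidant enzymes, 2 were over 2-fold lower in Bcl11a-/- MPPs and none in GMPs, with a median of −0.10 in MPPs. They were Park7 (the oxidant-sensing protein DJ-1), at 7.37 in Bcl11a-/- MPPs and 9.26 in WT MPPs, and Glrx (glutaredoxin), at 6.97 in Bcl11a-/- MPPs and 8.01 in WT MPPs. The superoxide dismutases and catalase were within 2-fold.

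Of 16 measured genes that supply NADPH, 2 were over 2-fold lower in Bcl11a-/- MPPs, with a median of −0.19. These were Pgls (6-phosphogluconolactonase) at −1.57 and Taldo1 (transaldolase) at −1.09. Of 19 genes of glutathione turnover and transport, 1 was over 2-fold higher and none lower, with a median of 0.00. It was Anpep (aminopeptidase N), at 7.24 in Bcl11a-/- MPPs and 5.51 in WT MPPs.

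Of 23 measured genes of the Nrf2 pathway, 2 were over 2-fold lower in Bcl11a-/- MPPs, none was higher, and the median was −0.04. Both encode ferritin chains. Fth1 read 10.02 in Bcl11a-/- MPPs and 11.74 in WT MPPs, and Ftl1 read 7.49 in Bcl11a-/- MPPs and 9.70 in WT MPPs. In GMPs 1 gene of this list was over 2-fold higher, Blvrb (biliverdin reductase B, abundant in red cells), at 8.94 in Bcl11a-/- GMPs and 7.79 in WT GMPs. It stands beside the higher erythroid genes given above. The list shares Gclc, Gclm and Txnrd1 with the members, all of them within 2-fold in both populations.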

How the data were processed

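RNA of sorted, pooled cells was amplified, labeled with biotin and hybridized to 1-color oligonucleotide arrays. The authors summarised probe sets by RMA with quantile normalization in ArrayStar, version not given in the sources used here, and deposited 1 log2 signal per probe set and array. Quantile normalization hides a change in total mRNA per cell. Of 30177 rows, the 1324 lowest-numbered ones, all unannotated, were taken as controls and set aside, since no row is marked as a control. All 61 member probe sets matched a RefSeq gene (GRCm38.p6) by Entrez identifier; 4 related probe sets that also carry predicted genes, and 2 shared by Gstp1 and Gstp2, were not members.

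Differences were taken per probe set with Python 3.11.15, and lowess with statsmodels 0.14.6. Counting and centring were tested on simulated data. With 1 array per condition no test was run, and the number of arrays limits the precision. Members and lists were chosen with earlier results of these data known. Genes named in full are those over 2-fold between genotypes, the brightest of each family, those nearest the threshold, and the 6 largest WT population differences each way where either array reached 6; others are named as examples after their values were seen. Alternatives were a signal filter at 6, a floor at 5, centring on the median or by lowess (span 0.3), renewed quantile normalization, thresholds of 1.5-fold and 3-fold, counts per gene, added shared probe sets and a narrower family; 2 were added after seeing the data.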

Additional observations from a re-analysis of the deposited data

Results flagged for a closer look

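For 3 probe sets over 2-fold in 1 population, the genotype difference had the opposite sign in the other. The MPP difference less the GMP difference was −3.47 for Gstp1, −1.88 for the Prdx2 probe set numbered on chromosome 1, and −1.76 for Gstp3. Their values in MPPs and GMPs were −3.25 and 0.22 for Gstp1, −1.48 and 0.40 for Prdx2, and −0.53 and 1.23 for Gstp3. These departures were not tested, since each condition has 1 array.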

How the results depend on the processing

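The count of 8 members over 2-fold lower in Bcl11a-/- MPPs was 5 when probe sets of a gene were averaged, 7 when a gene was read by its brightest probe set, 3 at a 3-fold threshold and 5 without probe sets numbered on another chromosome, an alternative added after seeing the data. At 1.5-fold, 10 members were lower and 5 higher in Bcl11a-/- MPPs, and 1 was lower and 3 higher in Bcl11a-/- GMPs. At that threshold 18 were lower and 2 higher in WT MPPs than in WT GMPs. At 3-fold, 0 were higher in Bcl11a-/- GMPs, and 5 were lower and 0 higher in WT MPPs than in WT GMPs. In Bcl11a-/- MPPs 9 were then lower and 0 higher than in Bcl11a-/- GMPs. Shares of all probe sets at 1.5-fold and 3-fold are not given here, so these counts cannot be set against the array. With a mean signal of at least 8, also added after seeing the data, 0 members were higher in Bcl11a-/- GMPs, 5 were lower in WT MPPs than in WT GMPs and 11 were lower in Bcl11a-/- MPPs than in Bcl11a-/- GMPs, and the MPP median was −0.47. It was −0.30 with a signal of at least 6 on either array. Averaging joins the probe sets of Prdx1, Prdx2 and Txndc9 that differed in MPPs. Of the alternatives run on these counts and medians, 108 values lay within 1.5 times the count or 0.1 of the median, and 18 did not. Some of the 108 were counts of 0 that stayed at 0. Among 22 fully named probe sets, lowess centring and renewed quantile normalization each took 1 value, that of Prdx1 in MPPs, within 2-fold, and no value over 2-fold changed sign. No paired analysis was possible because each condition has 1 array. Dim signals, under 6 on all arrays for 17 members, limit what those members can show.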
